A study of Mus musculus with 9 samples.

Results

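The genes described here are 6 of the 34745 in the deposited expression table: the chemokine genes Cxcl1, Cxcl2, Cxcl3 and Cxcl5, the receptor gene Cxcr2 and the growth factor gene Csf3. They were taken by gene name, and all 6 passed the filter on low counts. RNA was sequenced from 9 tumours that grew under the skin of male wild-type C57BL/6 mice from injected LLC cells, a single mouse Lewis lung carcinoma line. The labels give the age of the mice as 6 to 8 with no unit, and treatment began near a tumour volume of 100 mm3. The first group is 3 tumours of mice that received BTZ (bortezomib, a proteasome inhibitor, 0.5 mg/kg) with an antibody against PDL1 (10 mg/kg). The next 3 are from mice given that antibody alone (10 mg/kg), and the last 3 from mice given an isotype control antibody (10 mg/kg), all into the peritoneum. PDL1 binds the inhibitory receptor PD-1 on T cells. There was no group with BTZ and no antibody among the libraries.

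CXCL1, CXCL2, CXCL3 and CXCL5 are small secreted proteins that carry a glutamate-leucine-arginine motif ahead of their paired cysteines. In mice they bind CXCR2, a G protein-coupled receptor of neutrophils, and draw these cells out of blood vessels along a gradient. They are made by epithelial, stromal, endothelial and myeloid cells after signals such as interleukin 1, tumour necrosis factor and interleukin 17, largely through the transcription factor NF-kappaB. CSF3 (granulocyte colony-stimulating factor, G-CSF) acts on the bone marrow, where it raises neutrophil output, and tumours that secrete it can enlarge the neutrophil pool of their host. Bortezomib is known to keep the NF-kappaB inhibitor I-kappaB-alpha from being degraded.

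The 4 ligand genes lie on the forward strand of mouse chromosome 5 (build mm10) within 147 kb, in the order Cxcl5 (90759360 to 90761624), Cxcl3 (90786103 to 90789600), Cxcl1 (90891241 to 90893115) and Cxcl2 (90903871 to 90905938). The same stretch holds Ppbp and Pf4, which encode the platelet chemokines CXCL7 and CXCL4, and Cxcl15, which had 1 count in 1 tumour. Cxcr2 lies on chromosome 1 (74153989 to 74161246) and Csf3 on chromosome 11 (98701263 to 98703629), both on the forward strand.

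Promoter sequences from 250 bases before to 50 bases after the gene start are shown for 3 ligands because 1 short element recurs in them. They come from the RefSeq promoters (build GRCm38.p6), which matched 4 of the 6 genes (Cxcl1, Cxcl2, Cxcl3 and Cxcr2). Each is printed 5′ to 3′ in the direction of transcription, and capitals mark matches to the motifs searched. They lie at chr5:90890995-90891294 for Cxcl1, chr5:90903649-90903948 for Cxcl2 and chr5:90785851-90786150 for Cxcl3, all on the forward strand.
Cxcl1: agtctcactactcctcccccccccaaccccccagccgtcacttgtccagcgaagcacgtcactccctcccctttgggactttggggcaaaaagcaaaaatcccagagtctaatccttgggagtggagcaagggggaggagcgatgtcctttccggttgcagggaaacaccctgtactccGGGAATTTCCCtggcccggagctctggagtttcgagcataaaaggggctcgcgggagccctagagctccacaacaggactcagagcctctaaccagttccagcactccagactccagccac
Cxcl2: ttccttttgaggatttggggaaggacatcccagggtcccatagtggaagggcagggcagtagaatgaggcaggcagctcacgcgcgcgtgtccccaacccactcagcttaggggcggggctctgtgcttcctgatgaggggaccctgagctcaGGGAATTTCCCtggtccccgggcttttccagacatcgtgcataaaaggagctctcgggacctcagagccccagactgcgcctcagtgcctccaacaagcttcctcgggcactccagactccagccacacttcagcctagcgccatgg
Cxcl3: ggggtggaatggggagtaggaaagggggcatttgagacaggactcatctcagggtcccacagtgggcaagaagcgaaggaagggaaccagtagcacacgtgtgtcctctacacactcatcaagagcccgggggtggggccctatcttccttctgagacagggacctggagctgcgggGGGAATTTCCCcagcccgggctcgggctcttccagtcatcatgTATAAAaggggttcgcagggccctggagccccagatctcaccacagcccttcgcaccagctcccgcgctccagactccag

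The motif of NF-kappaB type was GGGA, any 2 bases and TTCC, searched on both strands. It matched each of the 3 ligand promoters once on either strand, and the 2 matches overlap at a single place. The forward match began 71 bases before the start in Cxcl1, 97 before it in Cxcl2 and 73 before it in Cxcl3. A match was found in 1.47% of all 32851 RefSeq promoters. The TATA box (TATAAA) matched Cxcl3 alone of the 4, beginning 30 bases before the start, against 13.6% of all promoters. The motif of AP-1 type (TGANTCA, 7.81% of all promoters) and that of C/EBP type (TTGCNNAA, 10.8%) matched none of the 4 windows. No motif matched the Cxcr2 window (chr1:74153744-74154043, forward strand). The promoters of Cxcl5 and Csf3 were not used here. A match is a string of letters and does not show that a factor binds there.

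The libraries held about 18516300 to 21510000 counts. Within each group every pair of libraries differed far beyond sampling noise, so each was counted as its own replicate. Skeletal muscle RNA varied most, with a sum over 10 marker genes of 4.27 to 760 CPM in BTZ+anti-PDL1, 101 to 998 CPM in anti-PDL1 and 3.83 to 2630 CPM in isotype tumours. The tumours richest in it were BTZ+anti-PDL1 replicate 1, anti-PDL1 replicate 1 and isotype replicate 3. Isotype replicate 2 stood apart in T cell RNA, at 4.85 CPM over 8 marker genes against 19.4 to 32.3 CPM in the other tumours. The tissue is labelled lung adenocarcinoma, and the lung lineage genes Nkx2-1 and Sftpc had no count in any tumour, while the keratin gene Krt18 had 56.6 to 113 CPM. Every value is from a piece of bulk tumour, so fewer cells of a type and less RNA per cell cannot be told apart.

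Levels were compared between genes as deposited FPKM (fragments scaled to gene length and library size). Cxcl1 was the most abundant of the 6, with a mean of 28.2 ± 14.8 FPKM (SD, n = 9 tumours). Cxcl2 followed with 5.75 ± 3.78 FPKM, then Cxcl5 with 2.82 ± 1.86 FPKM, Cxcl3 with 2.71 ± 1.81 FPKM, Csf3 with 1.28 ± 0.591 FPKM and Cxcr2 with 0.824 ± 0.423 FPKM. Cxcl1 exceeded Cxcl2 in 9 of 9 tumours, and Cxcl2 exceeded Cxcl5 in 9 of 9. Cxcl5 exceeded Cxcl3 in 5 of 9, so these neighbours did not differ beyond their spread. Cxcl3 exceeded Csf3 in 7 of 9 and Csf3 exceeded Cxcr2 in 7 of 9, and within both of these pairs the ranges overlapped.

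Summed over the 4 ligands, the level was 23.8 ± 12.3 FPKM in BTZ+anti-PDL1, 37.3 ± 15.1 FPKM in anti-PDL1 and 57.5 ± 11.6 FPKM in isotype tumours (SD, n = 3 each). BTZ+anti-PDL1 tumours spanned 11.4 to 36.0 FPKM, anti-PDL1 tumours 21.7 to 51.8 FPKM and isotype tumours 48.4 to 70.6 FPKM. The BTZ+anti-PDL1 and isotype sums did not overlap, and the anti-PDL1 sums overlapped both. Taken singly in CPM, Cxcl1, Cxcl2 and Cxcl3 overlapped between BTZ+anti-PDL1 and isotype, and only Cxcl5 did not. Of all tested genes 6.03% were lower without overlap in that comparison. Cxcl1 made up 74.4% ± 2.07 of the sum in BTZ+anti-PDL1, 70.5% ± 11.0 in anti-PDL1 and 69.8% ± 18.9 in isotype tumours (SD, n = 3 each). The share of Cxcl5 was 4.19% ± 1.97 in BTZ+anti-PDL1, 8.25% ± 1.96 in anti-PDL1 and 7.88% ± 2.85 in isotype tumours. In isotype replicate 3 Cxcl1 made up 48.6% of the sum, the lowest share of the 9 tumours.

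**Figure D1:**
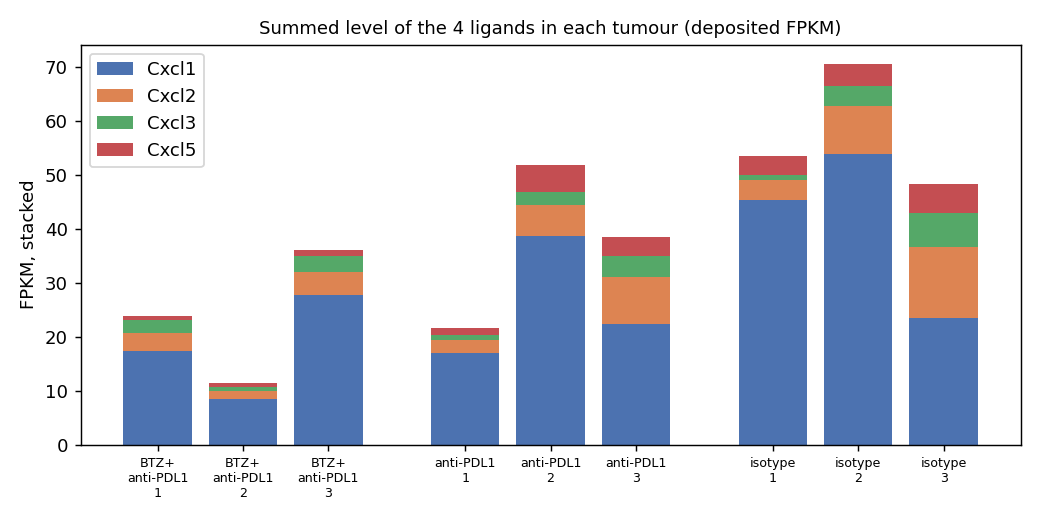
Deposited FPKM of Cxcl1, Cxcl2, Cxcl3 and Cxcl5 stacked for each of the 9 tumours, with the group and replicate number under each bar. Cxcl1 forms the biggest block in every tumour, and the summed level is 11.4 to 36.0 FPKM in the BTZ+anti-PDL1 and 48.4 to 70.6 FPKM in the isotype tumours.

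Differences between groups were tested on counts with edgeR over the 14506 genes that passed the filter. A call required a p adjusted by Benjamini-Hochberg to be under 0.05. Values by tumour are CPM (counts scaled to library size with TMM) in the order of replicates 1, 2 and 3. A log2 fold change is given with its standard error (SE).

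Cxcl5, made mainly by epithelial and stromal cells in mouse tissues, showed the widest gap between the groups among the 6 genes. It had 1.65, 1.66 and 2.45 CPM in BTZ+anti-PDL1 tumours, 2.95, 11.2 and 8.10 CPM in tumours given anti-PDL1 alone, and 8.19, 9.65 and 12.0 CPM in isotype controls. All 3 BTZ+anti-PDL1 tumours lay below all 6 others, and anti-PDL1 replicate 1 stood nearest to them. The log2 fold change of BTZ+anti-PDL1 against isotype was -2.37 ± 0.441 (SE, 5.17-fold lower, edgeR adjusted p = 0.224, unadjusted p = 0.000464). Against anti-PDL1 alone it was -1.95 ± 0.438 (3.85-fold lower, edgeR adjusted p = 0.494, unadjusted p = 0.00166). DESeq2 called both, with -2.38 against isotype (DESeq2 adjusted p = 2.17e-05) and -1.95 against anti-PDL1 alone (DESeq2 adjusted p = 0.00310). Without anti-PDL1 replicate 1, a tumour of neither group compared, edgeR called the difference from isotype (log2 fold change -2.37, adjusted p = 0.0461). With any other single tumour left out it did not (edgeR adjusted p of 0.137 to 0.610). For anti-PDL1 against isotype the log2 fold change was -0.42 ± 0.407 (edgeR adjusted p = 0.860), and the groups overlapped.

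The Cxcl5 differences had much the same size without the muscle-rich tumour of each group, at log2 fold changes of -2.12 against isotype and -2.23 against anti-PDL1 alone (edgeR adjusted p = 0.221 and 0.276). Muscle RNA stayed uneven among the tumours left, at 101 and 193 CPM in anti-PDL1 replicates 2 and 3. It was 16.7 and 4.27 CPM in the BTZ+anti-PDL1 and 3.83 and 6.14 CPM in the isotype tumours left. Its part in the Cxcl5 values was not tested. With 1 tumour left out the Cxcl5 differences ran from -2.58 to -2.21 against isotype and from -2.32 to -1.53 against anti-PDL1 alone. Between 31 and 229 counts stood behind each Cxcl5 value.

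Cxcl1, the most abundant ligand, known in mice as KC, had 48.6, 23.4 and 77.8 CPM in BTZ+anti-PDL1 tumours, 48.2, 109 and 63.5 CPM in tumours given anti-PDL1 alone, and 129, 158 and 65.1 CPM in isotype controls. Isotype replicates 1 and 2 stood above all other tumours, and isotype replicate 3 lay within the range of both other groups. The log2 fold change of BTZ+anti-PDL1 against isotype was -1.23 ± 0.539 (2.35-fold lower, edgeR adjusted p = 0.586, unadjusted p = 0.0563). It was -0.56 ± 0.535 against anti-PDL1 alone (edgeR adjusted p = 0.912). Anti-PDL1 against isotype gave -0.67 ± 0.532 (edgeR adjusted p = 0.841).

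Cxcl2, known as MIP-2 and made abundantly by activated macrophages and neutrophils, had 16.7, 8.39 and 22.1 CPM in BTZ+anti-PDL1 tumours, 11.7, 29.4 and 45.5 CPM in tumours given anti-PDL1 alone, and 19.5, 47.7 and 66.3 CPM in isotype controls. Isotype replicate 1 lay below BTZ+anti-PDL1 replicate 3, so these groups overlapped. The log2 fold change of BTZ+anti-PDL1 was -1.50 ± 0.643 against isotype (2.83-fold lower, edgeR adjusted p = 0.581, unadjusted p = 0.0519) and -0.87 ± 0.638 against anti-PDL1 alone (edgeR adjusted p = 0.886). Anti-PDL1 against isotype gave -0.63 ± 0.627 (edgeR adjusted p = 0.867).

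Cxcl3, a further CXCR2 ligand, had 10.8, 2.99 and 13.5 CPM in BTZ+anti-PDL1 tumours, 4.80, 10.8 and 17.6 CPM in tumours given anti-PDL1 alone, and 4.20, 17.1 and 28.3 CPM in isotype controls. All 3 groups overlapped one another, and the isotype tumours spanned the whole range of the anti-PDL1 tumours. Its log2 fold change was -0.86 ± 0.821 for BTZ+anti-PDL1 against isotype (edgeR adjusted p = 0.789), -0.28 ± 0.821 for BTZ+anti-PDL1 against anti-PDL1 (edgeR adjusted p = 0.975) and -0.58 ± 0.814 for anti-PDL1 against isotype (edgeR adjusted p = 0.904). The direction against anti-PDL1 alone turned without BTZ+anti-PDL1 replicate 2 (0.13) or without anti-PDL1 replicate 3 (0.22). For anti-PDL1 against isotype it turned without isotype replicate 3 (0.057), and for BTZ+anti-PDL1 against isotype the value without that tumour was -0.23.

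Cxcr2, the receptor shared by the 4 ligands, had 2.55, 1.87 and 4.42 CPM in BTZ+anti-PDL1 tumours, 3.40, 6.65 and 7.12 CPM in tumours given anti-PDL1 alone, and 3.15, 2.33 and 7.53 CPM in isotype controls. Isotype replicate 3 was the highest and BTZ+anti-PDL1 replicate 2 the lowest, and every pair of groups overlapped. BTZ+anti-PDL1 against anti-PDL1 gave a log2 fold change of -0.96 ± 0.502 (1.94-fold lower, edgeR adjusted p = 0.877, unadjusted p = 0.0899). BTZ+anti-PDL1 against isotype gave -0.55 ± 0.503 (edgeR adjusted p = 0.774), and anti-PDL1 against isotype 0.40 ± 0.494 (edgeR adjusted p = 0.888). Without isotype replicate 3 the difference of BTZ+anti-PDL1 from isotype was 0.11, and without the 3 muscle-rich tumours it was 0.20. In anti-PDL1 against isotype Cxcr2 was 1.06 without isotype replicate 3 (edgeR adjusted p = 0.441, unadjusted p = 0.0362) and 1.33 without the muscle-rich tumours (edgeR adjusted p = 0.561, unadjusted p = 0.0153). Cxcr1, the related receptor gene, had 0 to 6 counts per tumour and was under the filter.

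Csf3 had the fewest counts of the 6, with 10 to 58 per tumour. It had 0.901, 0.534 and 2.29 CPM in BTZ+anti-PDL1 tumours, 1.85, 1.52 and 1.55 CPM in tumours given anti-PDL1 alone, and 2.89, 1.73 and 3.03 CPM in isotype controls. BTZ+anti-PDL1 replicates 1 and 2 lay below all other tumours, while replicate 3 lay within the isotype range. The log2 fold change of BTZ+anti-PDL1 was -1.03 ± 0.474 against isotype (2.05-fold lower, edgeR adjusted p = 0.585, unadjusted p = 0.0556) and -0.40 ± 0.478 against anti-PDL1 alone (edgeR adjusted p = 0.938). Anti-PDL1 against isotype gave -0.63 ± 0.466 (edgeR adjusted p = 0.825). Without BTZ+anti-PDL1 replicate 3 the log2 fold change was -1.81 against isotype (edgeR adjusted p = 0.602, unadjusted p = 0.00147) and -1.18 against anti-PDL1 alone (edgeR adjusted p = 0.930, unadjusted p = 0.0151). Without BTZ+anti-PDL1 replicate 2 Csf3 had -0.68 against isotype and -0.041 against anti-PDL1 alone, and without the muscle-rich tumours -0.70 and -0.12. Its receptor gene Csf3r, expressed by neutrophils and their precursors, had 18.4 to 31.8 CPM in BTZ+anti-PDL1, 30.0 to 40.6 CPM in anti-PDL1 and 15.2 to 33.6 CPM in isotype tumours. The log2 fold change of Csf3r was -0.47 ± 0.299 for BTZ+anti-PDL1 against anti-PDL1 (edgeR adjusted p = 0.886).

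**Figure D2:**
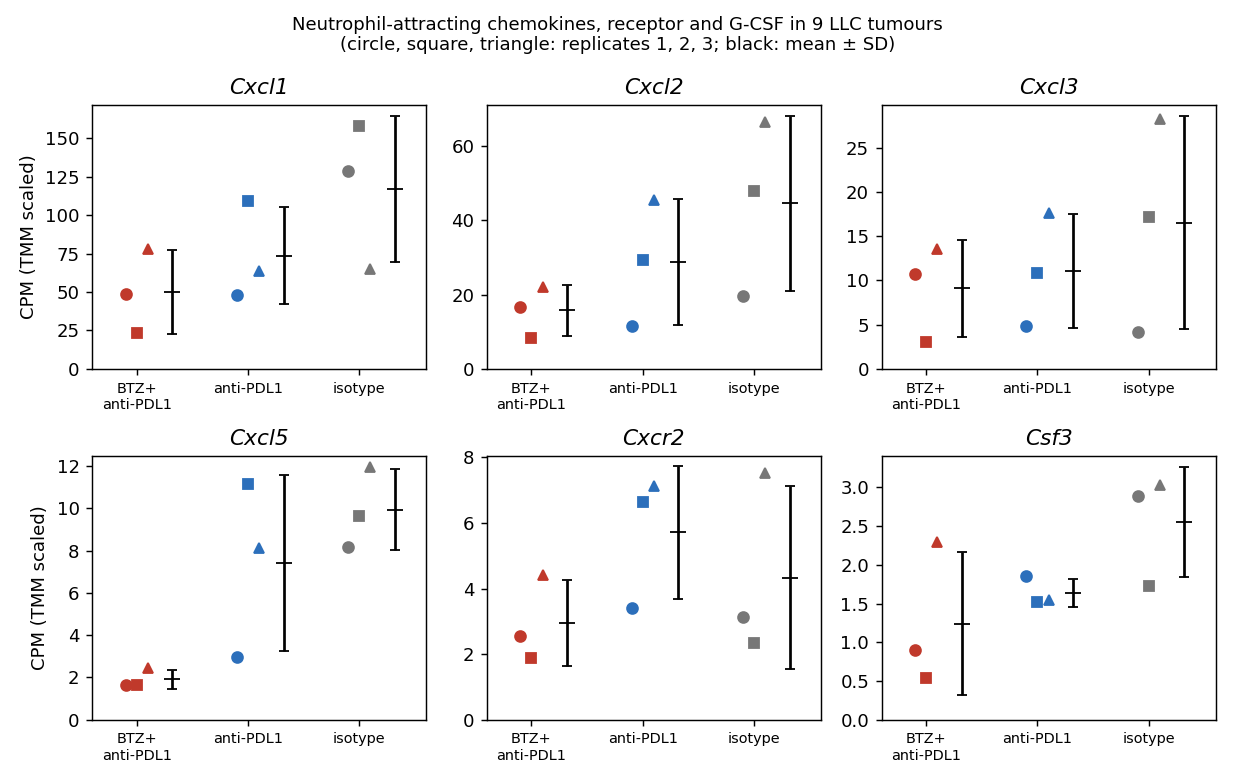
CPM of each of the 6 genes in the 9 tumours, by group, with a linear axis from 0 for each gene, replicate numbers as marker shapes and the mean ± SD of 3 tumours in black. Cxcl5 in the 3 BTZ+anti-PDL1 tumours (1.65 to 2.45 CPM) lies below all other tumours, whereas the groups overlap for the other 5 genes.

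A few tumours held the extremes. BTZ+anti-PDL1 replicate 2 had the lowest CPM of the 9 tumours in 5 of the 6 genes, and for Cxcl5 BTZ+anti-PDL1 replicate 1 was marginally lower. Isotype replicate 3 had the highest CPM in 5 of the 6, and isotype replicate 2 in Cxcl1. Isotype replicate 3 was also the tumour richest in skeletal muscle RNA, whose part in these levels was not tested.

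BTZ+anti-PDL1 against isotype sets the combination beside the control. All 6 genes had a log2 fold change below 0, where 50.3% of tested genes did, with a median of -1.13 against -0.0011 for all tested genes. EdgeR called 0 of the 6 (0.00689% of tested genes were called) and DESeq2 called 1 (0.742%). An unadjusted edgeR p under 0.05 was reached by 1 (8.6%), and 1 had groups that did not overlap, lower with BTZ+anti-PDL1 (6.03%). In each case that gene was Cxcl5. Without the muscle-rich tumours 5 of the 6 were below 0.

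BTZ+anti-PDL1 against anti-PDL1 sets BTZ added to the antibody beside the antibody alone. Here too all 6 were below 0 (49.2% of tested genes were), with a median of -0.72 against 0.0029 for all tested genes. EdgeR called 0 of the 6 (0.0138%) and DESeq2 called Cxcl5 (0.325%). Cxcl5 was the 1 gene with an unadjusted edgeR p under 0.05 (5.82%) and the 1 whose groups did not overlap, lower with BTZ+anti-PDL1 (6.99%).

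Anti-PDL1 against isotype sets the antibody alone beside the control. Of the 6 genes 5 were below 0 (51% of tested genes were), all but Cxcr2, with a median of -0.60 against -0.0034 for all tested genes. EdgeR called 0 (0.0138%), DESeq2 called 0 (0.0902%), 0 had an unadjusted edgeR p under 0.05 with all 9 tumours (6.35%), and 0 had groups that did not overlap with anti-PDL1 lower (6.61%). Without the muscle-rich tumours 2 of the 6 were below 0, and Cxcl2, Cxcl3 and Cxcl5 turned to 0.16, 0.42 and 0.11, while Cxcr2 moved up to 1.33. The 3 comparisons share tumours, so their values for a gene are not independent of each other.

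**Figure D3:**
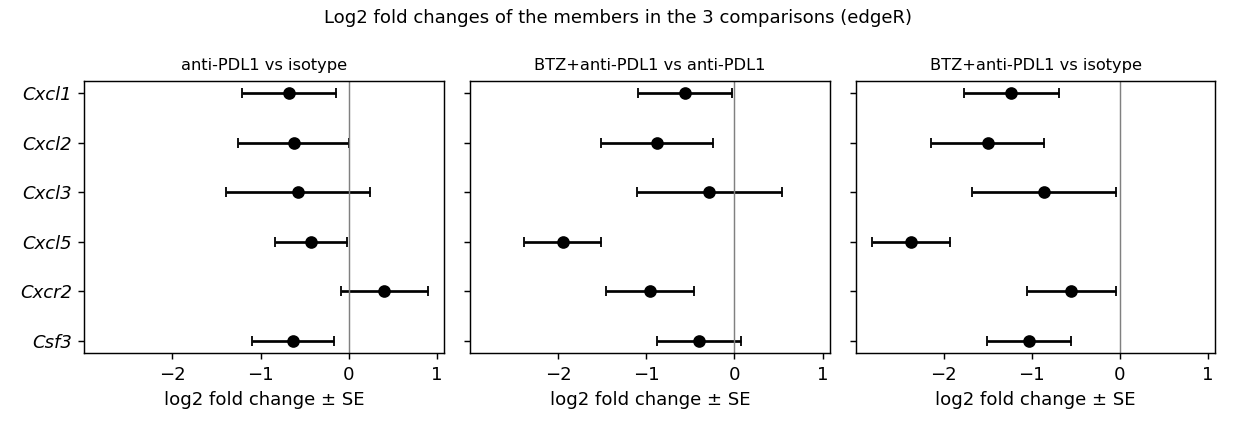
Log2 fold change with SE of the 6 genes in the 3 comparisons, from edgeR, with the first named group over the second and a line at 0. Cxcl5 lies farthest from 0 in both comparisons that involve BTZ, at -1.95 and -2.37, and no gene passed the adjusted threshold.

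Neutrophil marker genes were followed beside the chemokines. Of 17 such genes 11 passed the filter. BTZ+anti-PDL1 against anti-PDL1 gave values below 0 for all 11 (median log2 fold change -0.47), with 0 called by edgeR or DESeq2. An unadjusted edgeR p under 0.05 was reached by 4 (5.82% of tested genes). Lcn2, which encodes a siderophore-binding protein of neutrophil granules, had 1.20, 0.481 and 1.77 CPM in BTZ+anti-PDL1 tumours, 3.85, 3.96 and 3.75 CPM in tumours given anti-PDL1 alone, and 2.62, 2.77 and 6.27 CPM in isotype controls. All 3 BTZ+anti-PDL1 tumours lay below the other 6. Its log2 fold change was -1.74 ± 0.468 against anti-PDL1 alone (edgeR adjusted p = 0.634) and -1.75 ± 0.469 against isotype (edgeR adjusted p = 0.458). The calgranulin genes S100a8 and S100a9 had -0.86 ± 0.311 and -1.05 ± 0.387 against anti-PDL1 alone, and Retnlg, a resistin-like gene of mature neutrophils, had -1.34 ± 0.467. Against isotype 10 of the 11 were below 0 (median -0.30), with 0 called by edgeR, and S100a9 and Lcn2 called lower by DESeq2. At an unadjusted edgeR p under 0.05 there were 4 (8.6% of tested genes). For anti-PDL1 against isotype 8 of 11 were below 0 (median -0.069), with 0 called by either tool and 0 at an unadjusted edgeR p under 0.05.

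The sum over the 17 neutrophil genes was 130 to 181 CPM in BTZ+anti-PDL1, 171 to 243 CPM in anti-PDL1 and 145 to 274 CPM in isotype tumours. The surface marker Ly6g, which defines mouse neutrophils, had 0 counts in all BTZ+anti-PDL1 tumours and in isotype replicate 2, and at most 7 in any tumour. The granule genes Elane, Camp, Mpo, Ngp and Ltf were also under the filter. Their counts summed within BTZ+anti-PDL1, anti-PDL1 and isotype tumours were 3, 0 and 0 for Camp and 2, 0 and 0 for Elane. For Ltf they were 24, 33 and 12, for Ngp 10, 11 and 8, and for Mpo 1, 6 and 6. Over 6 endothelial markers the sum was 157 to 188 CPM in BTZ+anti-PDL1, 196 to 248 CPM in anti-PDL1 and 188 to 295 CPM in isotype tumours. Of these 6 genes all were below 0 in BTZ+anti-PDL1 against isotype (median -0.55), with 0 called by edgeR or DESeq2. An unadjusted edgeR p under 0.05 was reached by 5 of them (8.6% of tested genes). All 6 were also below 0 against anti-PDL1 alone (median -0.39), with 0 called by either tool. At an unadjusted edgeR p under 0.05 there were 2 (5.82% of tested genes). In 4 of the 6 the groups did not overlap (6.99% of tested genes were lower without overlap). The endothelial sums of the BTZ+anti-PDL1 tumours lay below those of all 6 others, narrowly so for isotype replicate 1. The neutrophil genes and the endothelial genes each mark a single cell type and are not independent results. The part of either cell type in the chemokine levels was not tested.

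**Figure D4:**
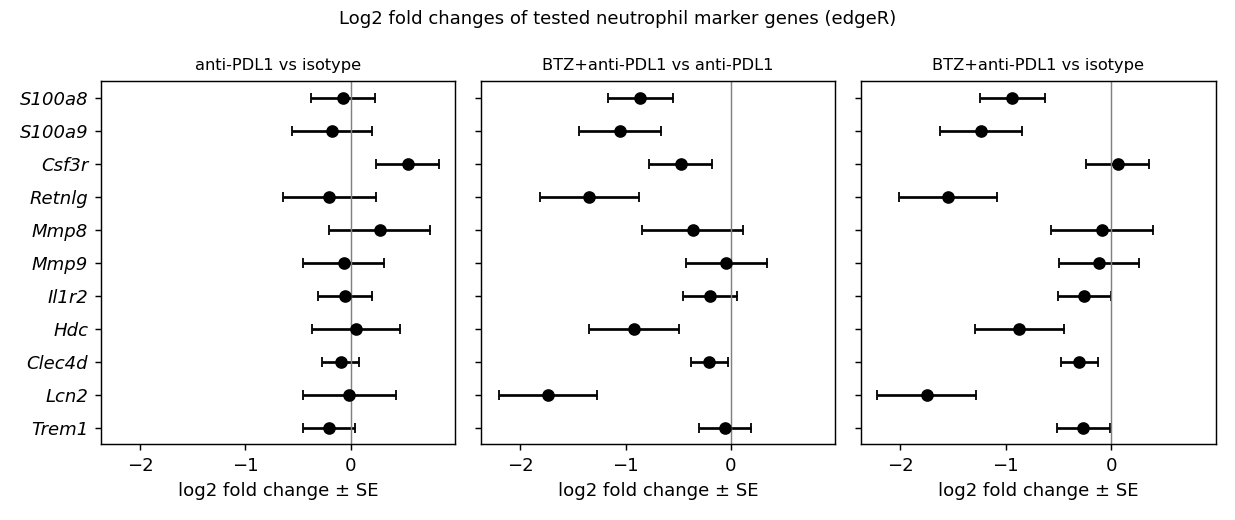
Log2 fold change with SE of the 11 tested neutrophil marker genes in the 3 comparisons, from edgeR. Lcn2 (-1.74), Retnlg (-1.34), S100a9 (-1.05) and S100a8 (-0.86) lie below 0 in BTZ+anti-PDL1 against anti-PDL1, and none passed the adjusted threshold.

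Over 6 red blood cell markers the sum was 29.0 to 196 CPM in BTZ+anti-PDL1, 45.3 to 88.8 CPM in anti-PDL1 and 136 to 268 CPM in isotype tumours. In anti-PDL1 against isotype all 6 were below 0 (median -1.73), and in all 6 the groups did not overlap (6.61% of tested genes were lower without overlap). An unadjusted edgeR p under 0.05 was reached by 2, and 0 were called by edgeR or DESeq2. These 6 genes mark a single cell type and are not independent results. Macrophage RNA over 8 markers was 1292 to 1541 CPM in BTZ+anti-PDL1, 1439 to 1621 CPM in anti-PDL1 and 823 to 1590 CPM in isotype tumours, and fibroblast RNA over 7 markers 7883 to 8100 CPM in BTZ+anti-PDL1, 8946 to 11858 CPM in anti-PDL1 and 7743 to 9420 CPM in isotype tumours. Adipocyte RNA over 5 markers was 8.87 to 32.3 CPM in BTZ+anti-PDL1, 15.8 to 28.5 CPM in anti-PDL1 and 10.1 to 103 CPM in isotype tumours, and keratinocyte RNA over 6 markers 7.11 to 10.7 CPM in BTZ+anti-PDL1, 8.94 to 10.2 CPM in anti-PDL1 and 7.61 to 24.6 CPM in isotype tumours. The epithelial and LLC list of 6 genes, with Krt8 and Krt18 its abundant members, had 111 to 135 CPM in BTZ+anti-PDL1, 76.2 to 116 CPM in anti-PDL1 and 109 to 135 CPM in isotype tumours. The fibroblast sums of BTZ+anti-PDL1 and anti-PDL1 tumours did not overlap. Most of these sums was Col3a1, with means of 5934 CPM in BTZ+anti-PDL1 and 7125 CPM in anti-PDL1 tumours. Between these groups 4 of the 7 fibroblast genes were below 0 and 3 above it (median -0.26). An unadjusted edgeR p under 0.05 was reached by 0. The part of these cell types in the chemokine levels was not tested.

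A neutrophil score (the mean over the 11 genes of log2 CPM minus its mean over the 9 tumours) was set against the log2 CPM of each of the 6 genes. The 6 relations were adjusted together, and the permutation tests were exact and two-sided over 9 tumours. Cxcr2 followed the score most closely, with Pearson's r = 0.87 (exact permutation p = 0.000840, adjusted 0.00504) and Spearman's rho = 0.85 (exact permutation p = 0.00607, adjusted 0.0364). Without BTZ+anti-PDL1 replicate 2 and isotype replicate 3, the 2 tumours farthest from the median score, r was 0.77 (exact permutation p = 0.0331). After the group means were subtracted r was 0.89 (exact permutation within groups, p = 0.0185, adjusted 0.111). Without isotype replicate 3 alone r was 0.83 (exact permutation, adjusted p = 0.0525).

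Csf3 had r = 0.81 (exact permutation p = 0.00899, adjusted 0.0270) and Spearman's rho = 0.68 (exact permutation p = 0.0503, adjusted 0.151). Cxcl2 had r = 0.74 (exact permutation p = 0.0201, adjusted 0.0401) and Spearman's rho = 0.52 (exact permutation p = 0.162, adjusted 0.194). Without the same 2 tumours r was 0.41 (exact permutation p = 0.347) for Csf3 and 0.32 (exact permutation p = 0.508) for Cxcl2. These r are over 7 tumours with a narrower range of scores. Within groups r was 0.77 (exact permutation within groups, p = 0.0787, adjusted 0.181) for Csf3 and 0.65 (exact permutation within groups, p = 0.0972, adjusted 0.181) for Cxcl2. The adjusted Pearson p of Csf3 was above 0.05 without BTZ+anti-PDL1 replicate 1 (r = 0.78), BTZ+anti-PDL1 replicate 2 (r = 0.61) or isotype replicate 3 (r = 0.75). That of Cxcl2 was above 0.05 without BTZ+anti-PDL1 replicates 1 or 2, anti-PDL1 replicates 2 or 3, or isotype replicates 1 or 3 (r of 0.58 to 0.76).

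Cxcl3 had r = 0.64 (exact permutation p = 0.0629, adjusted 0.0754) and Spearman's rho = 0.53 (exact permutation p = 0.148, adjusted 0.194). Without the 2 farthest tumours its r was 0.028 (exact permutation p = 0.938), and within groups 0.68 (exact permutation within groups, p = 0.120, adjusted 0.181). Cxcl1 had r = 0.42 (exact permutation p = 0.259, adjusted 0.259) and Spearman's rho = 0.12 (exact permutation p = 0.776, adjusted 0.776). Without those 2 tumours its r was -0.018 (exact permutation p = 0.968), and within groups 0.059 (exact permutation within groups, p = 0.889, adjusted 0.889). Cxcl5 values fell into a lower cluster of 4 tumours and an upper cluster of 5, too few for a correlation within either. Its relation was computed and counted among the 6 adjusted together. No r is given for it, so the link of Cxcl5 with the score is not judged here.

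**Figure D5:**
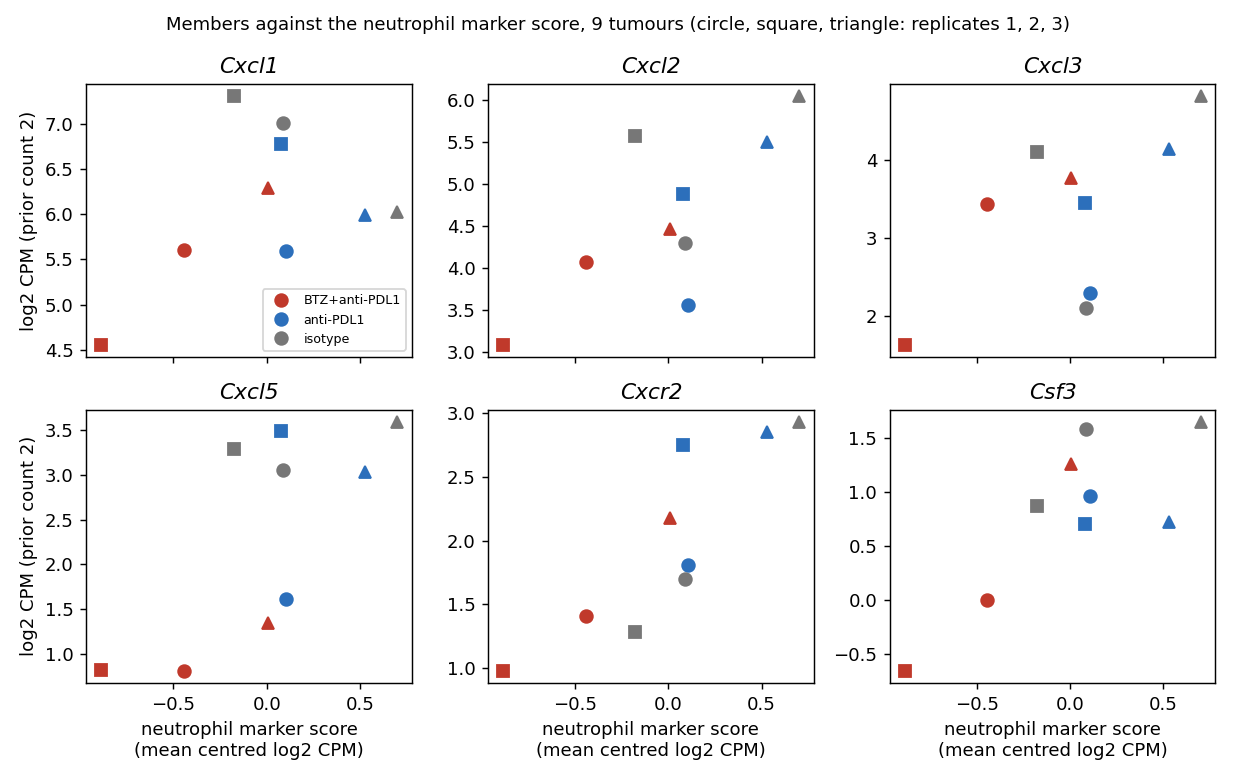
Log2 CPM of each of the 6 genes (vertical axis, prior count 2) against the neutrophil marker score (horizontal axis, mean centred log2 CPM of 11 genes) in the 9 tumours, coloured by group, with marker shapes for replicates. Cxcr2 is higher where the score is higher (r = 0.87), while r for Cxcl1 is 0.42, and -0.018 without the 2 farthest tumours.

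Among the genes themselves, 10 pairs were correlated over the 9 tumours, with Cxcl5 left out because of its 2 clusters. Only Cxcl2 with Cxcl3 passed adjustment, with Pearson's r = 0.90 (exact permutation p = 0.00123, adjusted 0.0123) and Spearman's rho = 0.92 (exact permutation p = 0.00131, adjusted 0.0131). Without BTZ+anti-PDL1 replicate 2 and isotype replicate 3 the r of this pair was 0.78 (exact permutation p = 0.0405, not adjusted). Within groups it was 0.97 (exact permutation within groups, p = 0.00463, not adjusted). That test has 216 permutations, and this p is the smallest it can give. Cxcl2 and Cxcl3 are 2 of the 3 genes whose promoters are printed above. Cxcl1, which holds the same element, had r = 0.60 with Cxcl2 and r = 0.40 with Cxcl3. The part of the element in these relations was not tested. The other 9 pairs had r of 0.25 (Cxcl1 with Cxcr2) to 0.67 (Cxcl1 with Csf3).

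For each gene the 5 others most like it were sought by Pearson's r of log2 CPM over the 9 tumours, among 12190 genes with a mean of at least 1 CPM. With so many genes and 9 tumours high values of r arise readily, and they are given as a measure of likeness only. Cxcl3 was most like Ppbp (0.96), Bard1 (0.96), Tcof1 (0.96), Pf4 (0.96) and Farsb (0.96). Ppbp and Pf4 lie between Cxcl5 and Cxcl3 on chromosome 5. Cxcl1 was most like Ier3 (0.97), Pgk1 (0.97), Wdr5 (0.96), Ddit4 (0.95) and Tbl2 (0.94). For Cxcl2 these were Ddx21 (0.95), Ptpmt1 (0.95), Hmox1 (0.95), Rasip1 (0.95) and Pecam1 (0.94), the last an endothelial marker. Cxcl5, on its 2 levels, was most like Ssbp2 (0.95), Kctd11 (0.95), Ppp1r3b (0.94), Eml4 (0.93) and Mest (0.92). Cxcr2 had Cox10 (0.95), Ccrl2 (0.95), Il4ra (0.91), Trpv4 (0.91) and Hsd11b1 (0.90), and Csf3 had the neutrophil gene Retnlg (0.90), G0s2 (0.89), Pdhx (0.89), Mpv17l (0.88) and Fth1 (0.88).

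The neighbouring chemokine genes gave values below 0 without a call by edgeR or DESeq2. Ppbp had 9.71, 3.15 and 15.6 CPM in BTZ+anti-PDL1 tumours, 2.50, 12.4 and 28.0 CPM in tumours given anti-PDL1 alone, and 3.20, 29.5 and 30.9 CPM in isotype controls. Isotype replicate 1 and anti-PDL1 replicate 1 were low, as they were for Cxcl3, and the groups overlapped. Its log2 fold change was -1.16 ± 1.09 for BTZ+anti-PDL1 against isotype (edgeR adjusted p = 0.786), and that of Pf4 was -0.59 ± 0.581 (edgeR adjusted p = 0.800). In FPKM over the 9 tumours Pf4 averaged 33.7 and Ppbp 13.8, beside the 28.2 of Cxcl1. The atypical receptor gene Ackr2, whose product binds inflammatory CC chemokines, had -0.91 ± 0.900, and Ackr1 and Cxcl15 were under the filter. Of these 6 genes 3 were tested, and all 3 were below 0 in each comparison, with 0 at an unadjusted edgeR p under 0.05.

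A list of inducers, with their receptors, adaptors and the interleukin 1 receptor antagonist gene Il1rn, held 14 genes, of which 13 were matched by name and 11 tested. Against isotype 6 of 11 were below 0 in BTZ+anti-PDL1 tumours (median -0.062), with 0 called by edgeR or DESeq2 and 1 at an unadjusted edgeR p under 0.05. That gene was Il6, an inflammatory cytokine, which had 1.25, 0.374 and 0.676 CPM in BTZ+anti-PDL1 tumours, 0.650, 2.59 and 1.22 CPM in tumours given anti-PDL1 alone, and 1.10, 3.02 and 2.93 CPM in isotype controls. BTZ+anti-PDL1 replicate 1 overlapped the isotype range, and the log2 fold change was -1.60 ± 0.618 (edgeR adjusted p = 0.549). In the same comparison Il1b, a main inducer, had -0.51 ± 0.431, Tnf 0.58 ± 0.410 and the TNF receptor gene Tnfrsf1a -0.18 ± 0.0833. Il1rap, a shared subunit of interleukin 1 receptors, had -0.23 ± 0.124 and the receptor gene Il1r1 -0.062 ± 0.0929. Il17a had no count in any tumour and Il17f was under the filter, while the receptor gene Il17ra had 0.11 ± 0.0707. Against anti-PDL1 alone 7 of 11 were below 0 (median -0.12), and for anti-PDL1 against isotype 6 of 11 (median -0.016), with 0 called by either tool and 0 at an unadjusted edgeR p under 0.05 in both.

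NF-kappaB genes and regulators of messenger decay numbered 11, and all were tested. In BTZ+anti-PDL1 against isotype 9 of 11 were below 0 (median -0.27). EdgeR and DESeq2 called 0. At an unadjusted edgeR p under 0.05 there were 3 below 0 and 1 above it (8.6% of tested genes in either direction). Those below were Cebpd, a transcription factor of the acute phase (-0.46 ± 0.131, edgeR adjusted p = 0.492), Nfkbiz, whose product aids many secondary NF-kappaB targets (-0.55 ± 0.198, edgeR adjusted p = 0.543), and Tnfaip3, which encodes a feedback inhibitor (-0.59 ± 0.244, edgeR adjusted p = 0.565). The one above was Nfkb2, of the non-canonical arm (0.16 ± 0.0691, edgeR adjusted p = 0.579). Cebpd was low with the antibody alone too. It had 9.94 to 13.1 CPM in BTZ+anti-PDL1, 10.8 to 13.1 CPM in anti-PDL1 and 15.2 to 16.7 CPM in isotype tumours. Nfkbia, which encodes I-kappaB-alpha and is itself an NF-kappaB target, had -0.33 ± 0.224 against isotype and 0.054 ± 0.225 against anti-PDL1 alone. In anti-PDL1 against isotype 10 of 11 were below 0 (median -0.27), and in BTZ+anti-PDL1 against anti-PDL1 5 of 11 (median 0.023), with 0 called by either tool and 1 at an unadjusted edgeR p under 0.05 in each.

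CXC chemokines that draw other cells were followed too. Cxcl10, an interferon-induced ligand of CXCR3 on T cells, had 77.8, 59.2 and 96.8 CPM in BTZ+anti-PDL1 tumours, 41.2, 50.7 and 46.7 CPM in tumours given anti-PDL1 alone, and 35.1, 19.5 and 50.2 CPM in isotype controls. All BTZ+anti-PDL1 tumours lay above all others. Its log2 fold change was 1.16 ± 0.325 against isotype (edgeR adjusted p = 0.498), where DESeq2 called it higher, and 0.76 ± 0.321 against anti-PDL1 alone (edgeR adjusted p = 0.854). Cxcl11, a CXCR3 ligand as well, had 1.59 ± 0.679 against isotype, and Cxcl16, a ligand of CXCR6, had 0.67 ± 0.257. On the other side of 0 Cxcl12, the stromal ligand of CXCR4, had -1.46 ± 0.744, and Ackr3, its scavenging receptor, -1.18 ± 0.424. Of 13 such genes 10 were tested, and 6 were above 0 against isotype (median 0.72). EdgeR called 0, and an unadjusted edgeR p under 0.05 was reached by 3 above 0 and 1 below it. In BTZ+anti-PDL1 against anti-PDL1 5 of 10 were above 0 (median 0.022), with 1 at an unadjusted edgeR p under 0.05. For anti-PDL1 against isotype 6 of 10 were above 0 (median 0.46), with 0 at an unadjusted edgeR p under 0.05, and in both comparisons edgeR and DESeq2 called 0. T cell markers had 8 of 8 above 0 in BTZ+anti-PDL1 against isotype (median 0.74), 1 at an unadjusted edgeR p under 0.05 and 2 without overlap (share over all genes not computed). They were above 0 in 8 of 8 in anti-PDL1 against isotype (median 0.67) and in 6 of 8 in BTZ+anti-PDL1 against anti-PDL1 (median 0.094), with 0 at an unadjusted edgeR p under 0.05 in both, and 0 were called by edgeR or DESeq2 in any comparison. Isotype replicate 2, the tumour lowest in T cell RNA, was also the lowest for Cxcl10 and, with 16.5 CPM, for Cxcl16. The part of T cells in these levels was not tested. The difference between these genes and the neutrophil ligands was not tested.

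The colony-stimulating factor family was followed beyond Csf3. Of 6 other genes tested, all were above 0 in BTZ+anti-PDL1 against isotype (median 0.22), with 0.37 ± 0.190 for Csf2ra, a subunit of the GM-CSF receptor (edgeR adjusted p = 0.617). Csf1, which sustains macrophages, had 0.038 ± 0.106 in that comparison, and its receptor gene Csf1r 0.29 ± 0.211. In anti-PDL1 against isotype 5 of 6 were above 0 (median 0.29), and in BTZ+anti-PDL1 against anti-PDL1 2 of 6 (median -0.046). Csf2, the gene of GM-CSF, was under the filter. EdgeR and DESeq2 called 0 of the 6 in any comparison, and 0 had an unadjusted edgeR p under 0.05.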

How the data were processed

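Total RNA of 9 tumours was sequenced, 3 in each of 3 groups taken from the treatment labels (isotype libraries are titled blank). The deposited table gives a count per gene and tumour, whole and not normalised, and FPKM values made by the authors, per the file headers. The submitters' processing notes name HISAT2 2.0.4, StringTie 1.3.3b and mm10, without roles. How genes were counted, and with which annotation and strandedness, is not given in the sources used here. Values of overlapping genes are therefore uncertain. The columns of the BTZ+anti-PDL1 group were assigned through their treatment and replicate labels.

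A quasi-likelihood test of edgeR 4.0.16 (R 4.3.3, TMM, robust) was run with 3 group means in a single fit of 9 tumours. Genes were kept by filterByExpr at a minimum count of 10, which left 14506 of 34745, and p-values were adjusted over these. The SE was obtained from the log2 fold change and F, as its size over the root of F. Log2 CPM used a prior count of 2. Alternatives used DESeq2 1.42.0 and limma 3.58.1. The test was checked on simulated data. Nothing says that tumours came from separate mice, so p-values measure the spread between tumours.

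The 6 genes and the gene lists were chosen with earlier results of these data known. Named genes follow a rule: the 6 genes, up to 4 genes of each list with the smallest p in any comparison, and the 5 genes most like each of the 6. Cxcr1, Cxcl12, Csf1, Csf2, Il1b, Tnf, Il17a, Il17f, Il17ra, Nfkbia, Il1rn and genes under the filter were named for their role, after their values were seen.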

Additional observations from a re-analysis of the deposited data

How the results depend on the processing

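EdgeR called 0 of the 6 genes in each comparison, also with RLE scaling, no count filter, only the 6 tumours compared, the replicate block and without the muscle-rich tumours, and limma on FPKM called 0. DESeq2, run only with all tumours, called 1 (Cxcl5) in each comparison with BTZ. The edgeR count was 0 to 1 for BTZ+anti-PDL1 against isotype with 1 tumour left out. Without the muscle-rich tumours 2 of the 6 were below 0 in anti-PDL1 against isotype, where Cxcl2, Cxcl3 and Cxcl5 turned to 0.16, 0.42 and 0.11, and Cxcr2 turned to 0.20 in BTZ+anti-PDL1 against isotype. The cause was not tested. With 1 tumour left out, Cxcl3 ran from -1.08 to 0.057 in anti-PDL1 against isotype and from -0.69 to 0.22 in BTZ+anti-PDL1 against anti-PDL1, and Cxcr2 from -0.96 to 0.11 in BTZ+anti-PDL1 against isotype. The correlation with the neutrophil score ran from -0.14 to 0.59 for Cxcl1, 0.58 to 0.86 for Cxcl2, 0.39 to 0.74 for Cxcl3, 0.83 to 0.92 for Cxcr2 and 0.61 to 0.91 for Csf3. With S100a8 and S100a9 as the only markers Cxcl2 had r = 0.69 (exact permutation, adjusted p = 0.0606).

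Over all genes, the 2 calls for anti-PDL1 against isotype became 14 with DESeq2, 1 with the replicate block, 0 without the muscle-rich tumours and 1 to 4 with 1 tumour left out. The 2 for BTZ+anti-PDL1 against anti-PDL1 became 4 with no count filter, 53 with DESeq2, 12 with only the 6 tumours compared, 1 with the replicate block, 0 without the muscle-rich tumours and 1 to 7 with 1 tumour left out. The 1 for BTZ+anti-PDL1 against isotype became 6 with no filter, 109 with DESeq2, 3 with limma on log2(FPKM + 1) or log2(FPKM + 0.1), 0 to 20 with 1 tumour left out, and 0 with limma on unfiltered FPKM, only the 6 tumours compared, the replicate block or without the muscle-rich tumours. The deviations of same-numbered tumours from their group means had correlations of -0.43 to 0.39. These values show no steady pairing by number, but they cannot exclude a pairing. With the block Cxcl5 had -2.37 against isotype and -1.83 against anti-PDL1 alone. Csf3 and Cxcl5 rest on as few as 10 and 31 counts in a tumour, which limits their precision.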
